A study of Mus musculus with 6 samples.

Results

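The transcriptome of newborn control mouse samples labelled as dental epithelial cells is described here from 3 RNA sequencing libraries, control replicates 1 to 3. Messages of dental mesenchyme and dentin were also abundant in them, as given below. The labels give the source as dental epithelial cells, the genotype as WT (wild type) and the age as postnatal day 0 (P0). The other 3 libraries of the series are from Pkm cKO (conditional knockout) mice and entered nothing below. A gene belonged to the described transcriptome if the table typed it as protein-coding and if it had at least 1 CPM (reads of the gene per 1000000 reads counted in that library) in all 3 controls. This held for 12532 of 17846 protein-coding genes (70.2%), and for 12532 of 24959 rows in all. The labels call the 3 libraries biological replicates. They name no allele, strain, sex, Cre driver or dissection method for the controls, and they do not say whether a replicate was 1 animal or pooled tissue.

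The dental epithelium lines the growing tooth germ. Its inner layer becomes the ameloblasts, which secrete the enamel matrix proteins amelogenin, ameloblastin and enamelin, cut them with proteases and pump calcium and bicarbonate into the mineralising layer. The stratum intermedium, stellate reticulum and outer enamel epithelium lie behind them, while the odontoblasts that secrete dentin belong to the dental mesenchyme on the other side of the basement membrane. Markers of both sides were therefore examined.

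The 3 libraries held 38130829 to 39415700 counted reads, so 1 CPM was 38.1 to 39.4 reads and the lowest count of a kept gene in a library was 39. Kept genes held 99.01 to 99.20% of the reads. The median kept gene had a mean of 31.1 CPM, 9641 genes had a mean of at least 10 CPM, 2216 reached 100 CPM and 88 reached 1000 CPM. Another 629 protein-coding genes reached 1 CPM in 1 or 2 of the libraries, 3924 had reads but stayed under 1 CPM in each library, and 761 had no read. Just inside the limit, Arl11 had 1.07, 1.00 and 1.04 CPM, and just outside it Isg15 had 0.997, 1.65 and 1.37 CPM in replicates 1 to 3. To compare levels between genes, the mean CPM was divided by the length in kilobases of the gene's longest annotated coding transcript, which was found for 12412 kept genes. Ranks per kilobase are ranks among these. Replicate 3 stood apart from the other libraries: 317 and 240 kept genes differed by more than 2-fold between it and replicates 1 and 2, against 154 between replicates 1 and 2. The secretory, epithelial, mesenchymal and metabolic sums are therefore also given without it.

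The most abundant messages were those of extracellular matrix, enamel and keratin genes together with the translation machinery. By CPM, Col1a1, the main chain of type I collagen, was first in the mean and in each of the 3 libraries, with 20214, 21855 and 13389 CPM in replicates 1 to 3. Amelx, which encodes amelogenin, was second in the mean. Per kilobase the order turned: Amelx was first at 16566 CPM per kilobase, 3.17 times the second gene, Eef1a1, a translation elongation factor (5224 CPM per kilobase). COX1, a mitochondrially encoded subunit of the respiratory chain, had rank 3 at 3729, the basal keratin gene Krt5 rank 4 at 3122 and Col1a1 rank 5 at 3117 CPM per kilobase. The mean levels of Krt5 and Col1a1 were close to each other, and the spread of Col1a1 over the libraries was far wider than that gap. Of the other genes in the first 20 per kilobase, 9 encode ribosomal proteins, 2 are the mitochondrially encoded CYTB and ND1, 2 are the basal keratins Krt14 and Krt17, and the last 2 are Tpt1 and Itm2b.

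**Figure D1:**
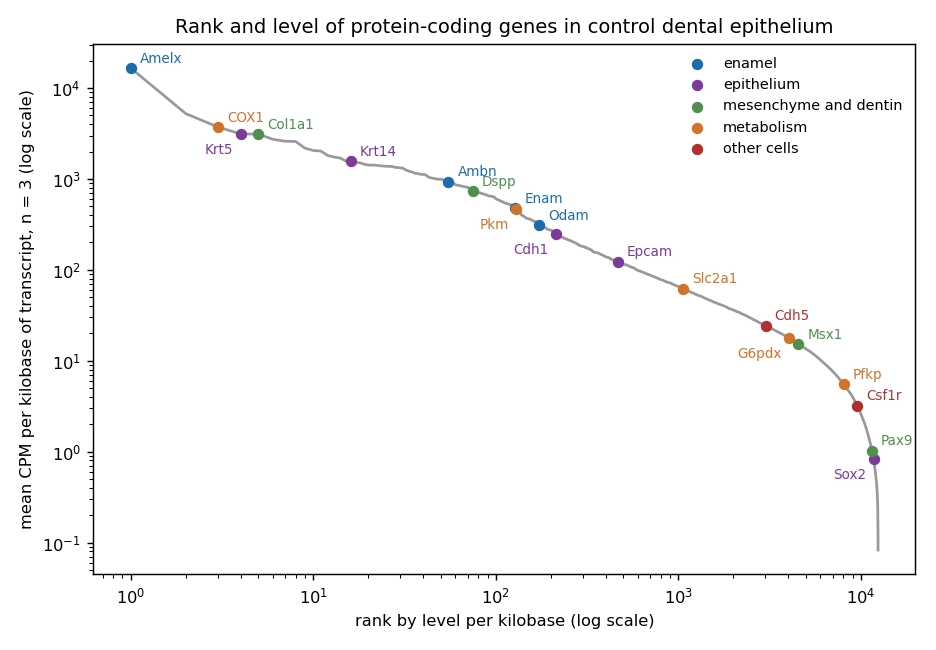
Rank (x axis, log scale) against mean level in CPM per kilobase of transcript over the 3 controls (y axis, log scale) for all kept genes with a transcript length (grey line), with selected genes as coloured points by group. Amelx stands first at 16566 CPM per kilobase, the epithelial genes Krt5 and Krt14 and the mesenchymal gene Col1a1 are within the first 16, and the endothelial gene Cdh5 and the macrophage gene Csf1r lie at ranks 3004 and 9545.

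The 10 genes with the highest mean CPM took 6.44 to 7.97% of the reads and the first 100 took 19.7 to 21.2%. Besides those already named, the first 20 by CPM included Col1a2, the partner chain of type I collagen, Dspp, the precursor of the dentin matrix proteins, and Sparc, a collagen-binding matrix protein. Epithelial or secretory genes among them were Krt14 and Krt17, the enamelin gene Enam, and Bcam, a laminin-binding adhesion molecule. Ctnnb1, which encodes beta-catenin, and Gja1, which encodes the gap junction protein connexin 43, were also in the first 20. The rest were Eef2, Rplp0 and CYTB, the secreted proteins Mfge8 and Clu, and the membrane protein Itm2b.

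The labelled cell type was checked against 7 marker genes, 3 of enamel, 2 of epithelium, 1 of dentin and 1 of collagen-producing mesenchyme. All 7 were kept, and all were among the first 213 genes per kilobase. Krt14 had 3160, 2579 and 2194 CPM in replicates 1 to 3 (2644 ± 487, SD, n = 3). Cdh1, which encodes the epithelial adhesion molecule E-cadherin, had 1233, 1010 and 1047 CPM (1097 ± 119, SD, n = 3). Both epithelial markers were thus present in every library, within 1.44-fold and 1.22-fold. The odontoblast marker Dspp had 4447, 3473 and 1869 CPM (3263 ± 1302, SD, n = 3). On the per-kilobase scale the level of Col1a1 was 3117, that of Krt14 1557, that of Dspp 736 and that of Cdh1 248. Epithelial and mesenchymal messages were thus found side by side in all 3 libraries. The 122 kept genes of the epithelial lists summed to a mean of 43127 CPM, and the 46 of the mesenchymal lists to 37185 CPM. The libraries thus did not hold epithelial messages alone. In bulk RNA such as this, fewer cells of a type and less RNA per cell cannot be told apart.

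**Figure D2:**
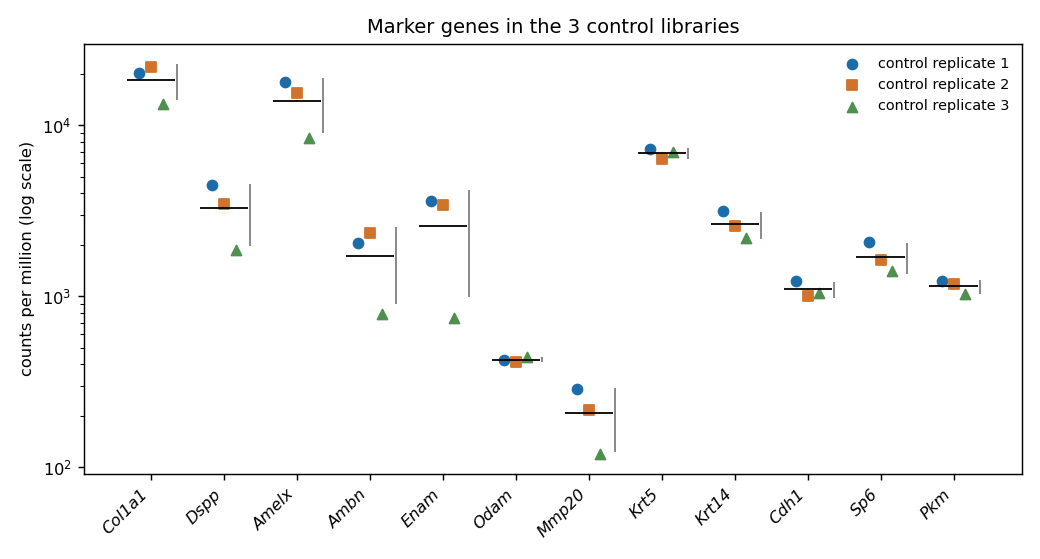
Level in CPM (y axis, log scale) of 12 genes in control replicates 1 (circles), 2 (squares) and 3 (triangles), with the mean as a black line and the mean ± 1 SD (n = 3) as a grey bar. Col1a1, Dspp, Amelx, Ambn, Enam, Mmp20, Krt14, Sp6 and Pkm are lowest in replicate 3. Odam, Krt5, Cdh1 and Pkm differ little between the libraries.

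Of 7 genes on the enamel matrix list, 5 were kept, 4 of them in the top 10% of the genes per kilobase. The 3 most abundant, Amelx, Enam and Ambn, had log2 SDs of 0.583, 1.297 and 0.856 between the libraries, against a median of 0.194 for genes at 1000 CPM or more. Amelx had 17932, 15491 and 8374 CPM in replicates 1 to 3, a 2.14-fold range. Enam had 3610, 3426 and 742 CPM, a 4.87-fold range, and its rank by CPM was 9 in replicates 1 and 2 but 154 in replicate 3. Ambn, the ameloblastin gene, had 2050, 2348 and 790 CPM, a 2.97-fold range. For all 3, replicate 3 was the low library while replicates 1 and 2 lay close together. The 42 kept genes of the 4 secretory lists (enamel matrix, enamel enzymes, ion transport and other enamel defect genes) summed to 34783, 30701 and 17776 CPM (27753 ± 8878, SD, n = 3). Without replicate 3 the mean sum was 32748 CPM.

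The other members behaved differently. Odam, which encodes a protein of maturing ameloblasts and the junctional epithelium, had 426, 413 and 441 CPM, so that it was highest in replicate 3 by a small margin. Tuft1, the tuftelin gene, had 24.5, 30.7 and 31.4 CPM. Unlike Odam, 3 other genes known from enamel maturation were near or under the limit of 1 CPM and were not kept. Amtn had 0.669 to 0.786 CPM, Odaph 0.0257 to 0.446 CPM, and the late protease gene Klk4 0.964 to 2.85 CPM.

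The bases just upstream of the annotated start of Amelx, Enam and Ambn are shown because these messages varied together. They are RefSeq sequences (build GRCm38.p6), 5′ to 3′ on the gene's strand, ending 1 base before the start. Capitals mark 2 promoter motifs, TATAAA, where the general initiation machinery can bind, and ATTGG, a site of the factor NF-Y.
Amelx, chrX:169187210-169187309, minus strand: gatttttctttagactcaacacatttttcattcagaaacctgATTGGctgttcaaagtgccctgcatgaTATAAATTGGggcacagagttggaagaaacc
Enam, chr5:88487825-88487974, plus strand: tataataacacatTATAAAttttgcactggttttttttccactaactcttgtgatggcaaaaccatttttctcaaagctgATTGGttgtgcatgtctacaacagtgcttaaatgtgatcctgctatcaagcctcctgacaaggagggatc
Ambn, chr5:88455891-88455990, plus strand: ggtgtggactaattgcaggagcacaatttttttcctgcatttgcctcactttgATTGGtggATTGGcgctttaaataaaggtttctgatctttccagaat

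Counted back from the base before the start as -1, Amelx had ATTGG at -58 to -54 and TATAAA at -31 to -26, followed by a second ATTGG at -26 to -22 that shares 1 base with it. Enam had TATAAA at -137 to -132 and ATTGG at -70 to -66. Ambn had ATTGG at -47 to -43 and again at -39 to -35. Both motifs were searched on both strands in the 250 bases before the start, and overlapping matches were counted. Of the 9 kept genes of the enamel matrix and protease lists, 8 had an entry; 3 of these held TATAAA and 6 held ATTGG. Over the 9987 kept genes with an entry the shares were 7.49% and 40.5%. The motifs were chosen after the sequences were seen, and a match is a description only.

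Enamel proteases, matrix enzymes and ion transport genes were, like Amelx, mostly lowest in replicate 3. All 4 kept genes of the protease and matrix enzyme list were lowest in replicate 3. Mmp20, the protease that first cuts amelogenin, had 286, 217 and 119 CPM in replicates 1 to 3. Acp4, a phosphatase needed for enamel, had 132, 138 and 58.1 CPM. Fam20c, the kinase that phosphorylates secreted matrix proteins, had 171, 151 and 111 CPM, and its partner Fam20a had 106, 104 and 65.6 CPM. Over all 12532 kept genes, 4453 were lowest in replicate 1, 3362 in replicate 2 and 4717 in replicate 3, and 3811 were highest in replicate 1, 3620 in replicate 2 and 5101 in replicate 3. Counts of list members by highest or lowest library are to be read against these.

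Of 24 ion transport genes, 18 were kept, 15 of which were highest in replicate 1 and 15 lowest in replicate 3. Calb1, a cytosolic calcium buffer typical of ameloblasts, was the most abundant at 1957, 1457 and 1044 CPM and stood at rank 158 per kilobase. Itpr3, a calcium release channel of the endoplasmic reticulum, had 904, 754 and 636 CPM. Atp2a2, the pump that refills that store, had 592, 417 and 412 CPM, and Slc4a2, a chloride and bicarbonate exchanger, had 291, 245 and 233 CPM. The calcium exchanger Slc24a4 of maturation-stage ameloblasts was under the limit at 0.0771 to 0.131 CPM. Of 19 other genes listed for amelogenesis imperfecta, an inherited enamel defect, 15 were kept and 11 of these were lowest in replicate 3. Lamb3, a laminin chain of the basement membrane, was nearly level at 717, 677 and 691 CPM, whereas Lama3, which encodes its partner alpha chain, had 132, 145 and 72.6 CPM (chosen after its values were seen).

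Genes of protein export were abundant and followed another order. Of 25 chaperones and folding enzymes of the endoplasmic reticulum, all were kept, 16 were in the top 10% per kilobase, and 5 in the top 1%. Calr, a calcium-binding chaperone, had 2105, 1399 and 1822 CPM in replicates 1 to 3. P4hb, a disulfide isomerase and subunit of the collagen hydroxylase, had 1763, 1520 and 1634 CPM. Hsp90b1 had 1587, 1220 and 1585 CPM, and Pdia3 had 1555, 1245 and 1482 CPM. In all 4, replicate 2 was the lowest, as in 17 of the 25 genes, and 18 of the 25 were highest in replicate 1. The 41 genes of translocation and vesicle transport were steadier, with a median SD of 0.107 on the log2 scale. Surf4, a cargo receptor for secreted proteins including amelogenin, led them at 1159, 911 and 871 CPM, followed by Sec61a1, the protein channel of the endoplasmic reticulum, at 746, 583 and 677 CPM.

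The epithelial lists formed the steadiest of the large groups in summed level. The 122 kept genes of the 7 epithelial lists summed to 45215, 42711 and 41455 CPM in replicates 1 to 3 (43127 ± 1915, SD, n = 3), or 4.31% of the reads. Without replicate 3 the mean sum was 43963 CPM. The lists include Alpl, which also marks odontoblasts, so the sum is not a level of epithelium alone. Bulk RNA does not show which cells the reads of the other members, such as Gja1, came from. Krt5, the basal keratin that pairs with Krt14, had 7274, 6316 and 6986 CPM. Krt17 had 2071, 2189 and 2493 CPM. Next among the keratins were Krt6a at 97.0, 126 and 126 CPM and Krt7 at 81.6, 78.8 and 87.6 CPM, and per kilobase Krt5, Krt14 and Krt17 had levels of 3122, 1557 and 1451 against 51.1 for Krt6a. The simple keratins Krt8 and Krt18 had means of 22.4 and 30.8 CPM (both chosen after their values were seen).

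Of 26 junction and adhesion genes, 24 were kept and 15 were in the top 10% per kilobase. Dsp, the desmosomal plaque protein desmoplakin, had 1453, 1511 and 1479 CPM. Perp, a desmosome protein of stratified epithelia, had 1333, 1295 and 1386 CPM, and Itgb4, an integrin subunit of hemidesmosomes, had 985, 936 and 884 CPM. The highest library was 1.04 times the lowest for Dsp, 1.07 times for Perp and 1.11 times for Itgb4. Ctnnb1, which links cadherins to actin and also carries Wnt signals, was steadier still at 2587, 2535 and 2562 CPM, a log2 SD of 0.0145. The epithelial regulator Trp63, a transcription factor of stratified epithelia, had 478, 473 and 414 CPM. Spint2, an inhibitor of membrane proteases, had 433, 376 and 407 CPM, its target St14 had 293, 252 and 198 CPM, and Esrp1, a splicing factor of epithelial cells, had 131, 137 and 143 CPM.

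Transcription factors of the dental epithelium ranged widely in level. The table typed 1382 protein-coding genes as transcription factors, of which 1007 were kept, with a median of 6.11 CPM per kilobase against 9.62 over all kept genes with a length. Sp6, known as epiprofin and needed for ameloblast differentiation, was the first of them at 470 CPM per kilobase, with 2080, 1624 and 1405 CPM in replicates 1 to 3. Dlx3, a homeobox factor of enamel formation, was the fifth, with 601, 577 and 585 CPM. Satb1, a chromatin organiser, had 665, 523 and 415 CPM.

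Factors that varied did so in both directions. Dlx2 had 299, 339 and 460 CPM and Msx2, a homeobox repressor of the inner enamel epithelium, had 255, 269 and 365 CPM, so both were highest in replicate 3, where the enamel matrix genes were lowest. Ascl5, a bHLH factor known as AmeloD, had order 12 per kilobase among factors and varied the other way, with 111, 76.5 and 37.4 CPM. These 3 were named after their values were seen, apart from the rule that named the others. Of the 21 dental epithelial factors listed, 20 were kept, with a median of 21.3 CPM per kilobase, 7 of them in the top 10% of all kept genes and 14 above the median. Lef1, Trps1 and Foxj1 were among the lower ones at 3.27, 1.95 and 0.618 CPM per kilobase (these 3 were chosen after their values were seen), and Isl1, a marker of the incisor field, was at or near 0 reads (0 to 0.0257 CPM).

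Genes of the supporting layers differed in level. All 17 listed for the stratum intermedium and stellate reticulum were kept, with a median of 53.9 CPM per kilobase against 9.62 over all kept genes with a length and a summed level of 10670, 10660 and 10300 CPM. Gja1 led with 2996, 2919 and 2203 CPM, and Alpl, the tissue-nonspecific alkaline phosphatase that marks the stratum intermedium but also odontoblasts, had 905, 780 and 813 CPM. Of the stem cell and outer enamel epithelium genes, 16 of 18 were kept, with a median of 8.61 CPM per kilobase and 5 above the median of all kept genes. Igfbp5, a binding protein of insulin-like growth factors, had 2050, 2254 and 1800 CPM. The Hedgehog receptor gene Ptch1 had 513, 467 and 422 CPM, and the Hedgehog target Gli1 had 295, 305 and 297 CPM. The stem cell factors were scarce: Sox2 had 1.23, 1.98 and 1.85 CPM, and Lgr5 stayed under the limit at 0.566 to 0.939 CPM (both named after their values were seen).

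Among signalling genes 21 of 25 were kept. The ligand gene Shh, made by the inner enamel epithelium, had 560, 383 and 306 CPM, and Wnt6 had 439, 384 and 335 CPM. The receptors Fgfr1 and Fgfr2 had 1275, 1436 and 1330 CPM and 297, 302 and 319 CPM. Both receptors thus kept nearly the same level while Shh varied 1.83-fold. Fgf4 and Fgf8, ligands of earlier tooth signalling centres, had 0 reads, which allows up to 0.0761 to 0.0787 CPM (3 reads, counting error only).

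The mesenchymal and dentin genes with the most reads were lowest in replicate 3. The 46 kept genes of the mesenchymal lists summed to 41069, 42595 and 27891 CPM in replicates 1 to 3 (37185 ± 8085, SD, n = 3), or 3.72% of the reads. Without replicate 3 the mean sum was 41832 CPM. Col1a1, Col1a2 and Dspp made up most of this sum. Col1a2 had 7586, 7783 and 4374 CPM. Dmp1, an acidic dentin matrix protein, had 409, 568 and 307 CPM (chosen after its values were seen), and Sparc had 2520, 2784 and 2143 CPM. Of the 19 kept odontoblast and dentin genes, 12 were lowest in replicate 3, but Spp1, a matrix protein gene (37.2, 53.2 and 79.6 CPM), and Ifitm5, which encodes a membrane protein of osteoblasts (31.2, 33.7 and 39.98 CPM), were highest there (these 2 were chosen after their values were seen).

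General mesenchyme genes did not have this order. Vim, the intermediate filament of mesenchymal cells, had 537, 573 and 624 CPM, and Col3a1, a collagen of loose connective tissue, had 415, 460 and 468 CPM. Among the 29 kept genes of dental mesenchyme and fibroblasts, 17 were lowest in replicate 1 and 8 in replicate 3. Among transcription factors of dental mesenchyme, the means were 29.5 CPM for Msx1, 37.2 for Barx1 and 4.33 for Pax9, against 31.1 CPM for the median kept gene (these 3 were chosen after their values were seen).

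Markers of other cells were present at lower levels. Summed over the kept members, endothelial genes had 641, 565 and 629 CPM in replicates 1 to 3, with all 15 kept and led by Cdh5 (97.1 CPM on average), Pecam1, Eng and Tie1. Perivascular genes had 809, 711 and 810 CPM, led by Acta2, and erythroid genes 654, 571 and 786 CPM, led by the globin genes Hbb-bs and Hba-a1, whose reads can be shared with their near-identical copies. Immune genes summed to 92.7, 95.7 and 87.8 CPM with 14 of 21 kept, led by Lyz2 and Csf1r, and the pan-leukocyte gene Ptprc was under the limit in 2 libraries. Neural and glial genes summed to 524, 427 and 407 CPM, mostly Tubb3, while the Schwann cell factor Sox10 stayed at 0 to 0.103 CPM. Skeletal muscle genes were nearly absent: 2 of 14 were kept, Mylpf and Des, and Myod1 had 0 reads.

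Of 20 genes of cornified and oral surface epithelium, 9 were kept, led by Sfn at 266, 233 and 161 CPM, and Flg, Ivl and Krt76 had 0 to 0.210 CPM. Of 15 cartilage and bone genes, 9 were kept, summing to 796, 652 and 623 CPM, and the cartilage genes Acan and Matn1 stayed under the limit. The osteoclast gene Ctsk had 118, 42.7 and 60.6 CPM and Mmp9, also made by osteoclasts, 135, 55.2 and 83.5 CPM, so both were highest in replicate 1 (Ctsk was chosen after its values were seen). The highest library was 1.09 to 1.14 times the lowest in summed level for the endothelial, perivascular and immune genes, and 1.28 to 1.38 times for the neural, cartilage and bone, cornified and erythroid genes. It was 1.69 times the lowest for the 2 muscle genes and 2.32 times for the enamel matrix genes. Their part in the differences between libraries was not tested.

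**Figure D3:**
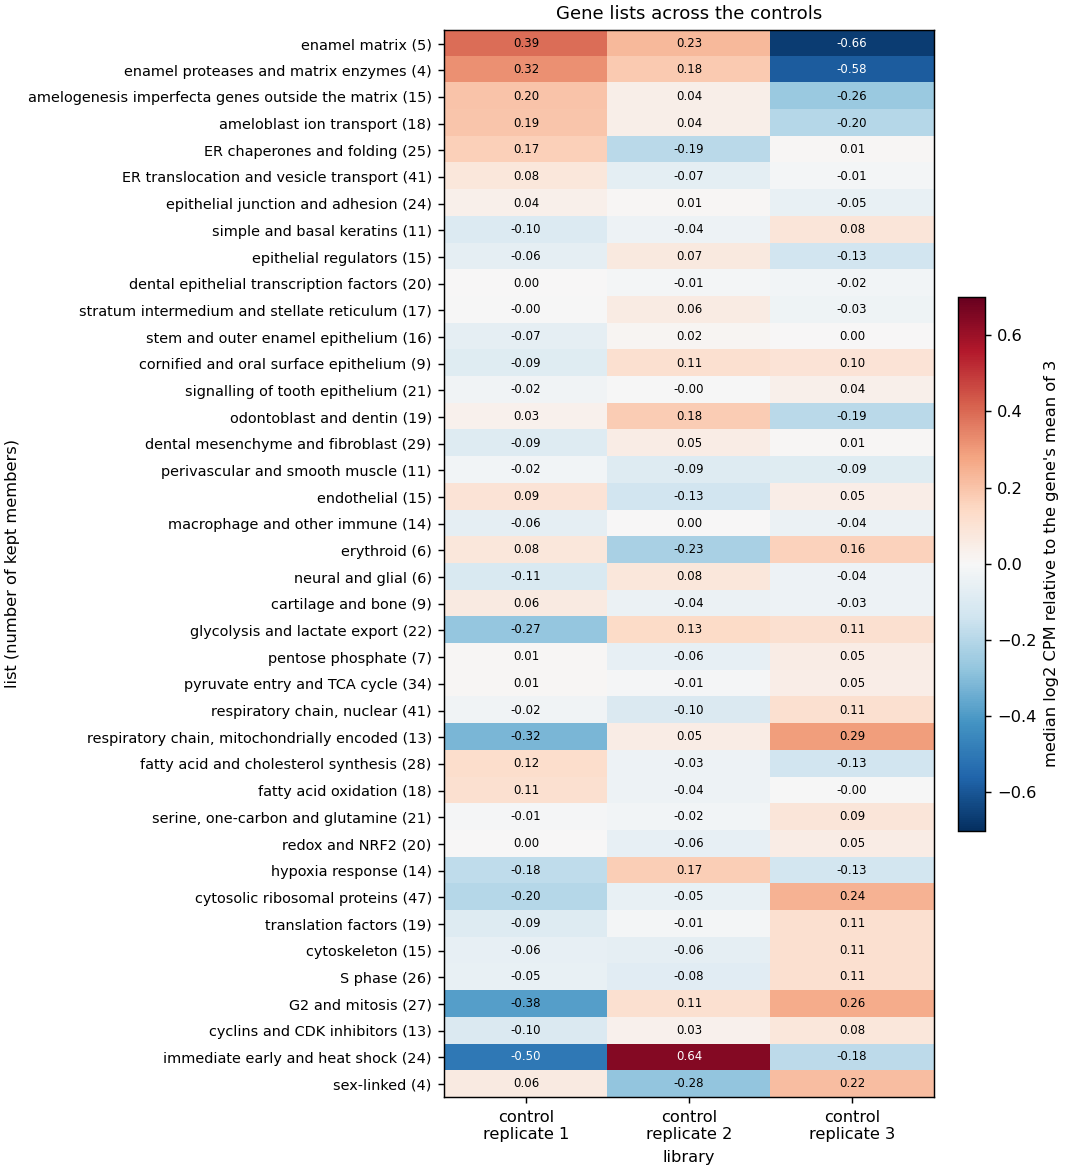
Median deviation of the kept members of each gene list (rows, with the number of kept members) from each gene's own mean log2 CPM over the 3 controls, by library (columns), in log2 units, for lists with at least 4 kept members. Enamel matrix genes have a median of -0.66 in replicate 3, immediate early and heat shock genes 0.64 in replicate 2, and G2 and mitosis genes -0.38 in replicate 1.

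Metabolic genes summed to 39169, 42348 and 45972 CPM for 218 kept genes, or 4.25% of the reads. Without replicate 3 the mean sum was 40759 CPM. Mitochondrially encoded subunits supplied 10864, 13871 and 16435 CPM of the sums in replicates 1 to 3. All 13 of these were lowest in replicate 1, and 11 were highest in replicate 3. COX1 had 4644, 5936 and 6702 CPM, CYTB, a subunit of complex III, 2239, 3011 and 3608 CPM, and ND1, a subunit of complex I, 1542, 1862 and 2404 CPM. Per kilobase COX2 (70.2), COX3 (63.3) and ATP6 (40.7) were far below COX1, although these genes lie on the same mitochondrial DNA. Their levels are uncertain, since reads shared with other sequences may not have been counted, which was not tested (these 3 were chosen after their values were seen).

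The nuclear genes of the respiratory chain had another order. All 41 were kept and lay above the median per kilobase, 36 of them in the top 10%. Atp5b, the catalytic subunit of ATP synthase, had 1133, 954 and 1169 CPM and Cox4i1, a subunit of complex IV, had 390, 384 and 478 CPM. Of the 41 genes, 36 were lowest in replicate 2 and 35 highest in replicate 3. The list of pyruvate entry and citric acid cycle genes was the steadiest of all lists with at least 4 kept genes. Its median log2 SD was 0.0866 over 34 genes. Cs, citrate synthase, had 405, 402 and 406 CPM.

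Most glycolytic genes had their lowest value in replicate 1. Pkm, which encodes the M-type pyruvate kinases and is the gene deleted in the knockout mice of the series, was the most abundant of the 22 at 1234, 1177 and 1026 CPM (1145 ± 108, SD, n = 3). It was rank 71 by CPM and 129 per kilobase (471 CPM per kilobase, the highest of the list). Pkm was itself lowest in replicate 3, in contrast to the next members. Eno1, enolase, had 652, 740 and 844 CPM. Ldha, the lactate dehydrogenase chain that turns pyruvate into lactate, had 379, 690 and 752 CPM, and Tpi1, triosephosphate isomerase, had 274, 433 and 459 CPM. Of the 22 genes, 15 were lowest in replicate 1. Gapdh (85.8, 100 and 127 CPM) and Aldoa (6.35, 8.05 and 5.51 CPM) had only 73.4 and 4.28 CPM per kilobase, against 242 for Tpi1, and the same doubt over shared reads holds for them, not tested (both were chosen after their values were seen). The first place of Pkm holds for the reads as counted, and so rests on these uncertain values.

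Glucose uptake stood apart. Slc2a1, which encodes the glucose transporter GLUT1, had 87.1, 405 and 113 CPM, a 4.65-fold range with replicate 2 alone high. Pfkfb3, an activator of glycolysis, had 12.7, 38.8 and 9.77 CPM. Among hypoxia response genes, P4ha1, a collagen hydroxylase subunit, had 112, 229 and 170 CPM, while P4ha2 had 446, 416 and 371 CPM. Vegfa, the endothelial growth factor, had 74.6, 183 and 78.3 CPM (chosen after its values were seen). The hypoxia-inducible factor gene Epas1 varied little, with 186, 165 and 171 CPM. Ndrg1, a stress-responsive gene, had 352, 340 and 176 CPM, so the list had no single order.

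Other metabolic lists did not share 1 order. Pentose phosphate genes summed to 692, 668 and 734 CPM, led by Tkt, a transketolase, at 276, 285 and 335 CPM. Genes of serine, one-carbon and glutamine metabolism summed to 1447, 1380 and 1519 CPM, led by Glul, glutamine synthetase, and Got2. Fatty acid and cholesterol synthesis genes summed to 5301, 4814 and 4660 CPM, with 23 of 28 highest in replicate 1 and 18 lowest in replicate 3; Scd2, a fatty acid desaturase, supplied 1611, 1571 and 1368 CPM. Fatty acid oxidation genes summed to a mean of 1036 CPM, led by Hadha, and redox genes to 2391 CPM, led by Prdx2, a peroxiredoxin also abundant in red cells.

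Translation genes took the largest share of the reads of the groups listed, 6.63%, with 58450, 63840 and 76685 CPM for 66 genes. All 47 cytosolic ribosomal protein genes listed were in the top 10% per kilobase, and 40 were in the top 1%. All 47 were lowest in replicate 1 and highest in replicate 3. Rplp0, a protein of the ribosomal stalk, had 2659, 2793 and 3426 CPM. Proliferation genes were expressed throughout. Mki67, a marker of cycling cells, had 145, 203 and 226 CPM, and Top2a, a topoisomerase of dividing cells, had 101, 148 and 130 CPM. Of 27 genes of G2 and mitosis, 26 were lowest in replicate 1 and 19 were highest in replicate 3. The 26 genes of S phase summed to 831, 817 and 951 CPM. Of these, 15 were lowest in replicate 2 and 19 highest in replicate 3. Cdkn1a, which encodes the cell cycle inhibitor p21, had 736, 698 and 460 CPM, and with 304 CPM per kilobase it was the highest of the cyclin and inhibitor list.

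The spread between replicates was larger than counting error. The median SD of log2 CPM over the 12532 genes was 0.169, where counting error alone would give 0.0418. With 1 replicate left out in turn the medians were 0.101 to 0.167, lowest without replicate 3. These are medians of SDs over 2 libraries. They can be compared with each other, but not directly with 0.169, which is over 3 libraries. Over all 3 libraries the median was 0.267 for genes under 10 CPM, 0.157 from 10 to 100 CPM and 0.125 from 100 to 1000 CPM. It was 0.194 for the 88 genes at 1000 CPM or more, although these had the smallest counting error. The biological coefficient of variation fitted across all kept genes by edgeR was 0.161. Replicates 1 and 2 were the closest pair, with r = 0.989 across genes against 0.981 for replicates 1 and 3 and 0.984 for replicates 2 and 3. The r values are a description across genes, which are not independent replicates. Of the 154 genes (1.23%) that differed by more than 2-fold between replicates 1 and 2, 135 were higher in replicate 2, and of the 240 between replicates 2 and 3, 211 were higher in replicate 2.

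**Figure D4:**
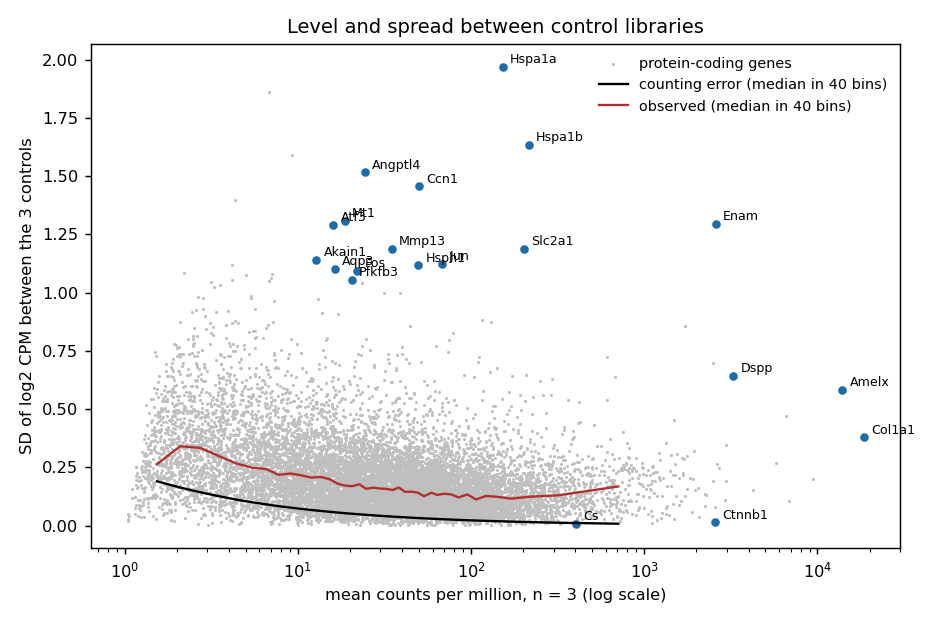
SD of log2 CPM between the 3 controls (y axis) against mean CPM (x axis, log scale) for the 12532 kept genes (grey points), with medians in bins of equal gene number for the observed spread (red line) and for counting error (black line). With Gm, Rik, LOC and clone symbols left out, Hspa1a lies highest among genes with at least 10 CPM at 1.97. Enam lies highest among the 88 genes of at least 1000 CPM at 1.297. Amelx at 0.58 lies just above the 95th percentile of those genes (0.54), and Cs lies below its counting error (0.0075 against 0.0115).

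Genes with a mean of at least 10 CPM were ranked by spread, leaving out symbols of the Gm, Rik, LOC or clone type. Of the first 15, 6 were on the immediate early and heat shock list, all highest in replicate 2. The enamel matrix gene Enam was also among the 15, and 8 were on neither list. Hspa1a, an inducible heat shock chaperone, had the highest spread of them, with 25.5, 371 and 61.3 CPM in replicates 1 to 3, a 14.6-fold range. Hspa1b, its near-identical copy, had 56.2, 493 and 94.99 CPM, an 8.77-fold range. Hsph1, a cochaperone, had 28.6, 97.1 and 23.1 CPM. In the same library the immediate early genes Jun (31.4, 134 and 39.6 CPM), Fos (10.9, 42.8 and 12.4 CPM) and Atf3 (5.64, 32.6 and 9.89 CPM) were also highest. Replicate 2 held the highest value for 21 of the 24 kept genes of the immediate early and heat shock list, against 3620 of 12532 over all kept genes. The 3 exceptions were the constitutive chaperone gene Hspa8 at 1299, 1290 and 1214 CPM and the transcription factor genes Klf4 at 364, 338 and 362 CPM and Jund at 199, 233 and 246 CPM.

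Reads of Hspa1a and Hspa1b may be shared between the copies, which was not tested, and their upstream sequences are shown because they are so alike. In RefSeq (build GRCm38.p6), 247 of the 250 bases before their starts were identical (98.8%). The last 150 bases are given 5′ to 3′ on the minus strand, with a match to GAANNTTC, the core of a heat shock element, in capitals at -104 to -97.
Hspa1a, chr17:34972157-34972306: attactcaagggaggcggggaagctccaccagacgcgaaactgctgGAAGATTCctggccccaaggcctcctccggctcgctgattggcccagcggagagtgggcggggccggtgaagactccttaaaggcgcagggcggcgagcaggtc
Hspa1b, chr17:34959239-34959388: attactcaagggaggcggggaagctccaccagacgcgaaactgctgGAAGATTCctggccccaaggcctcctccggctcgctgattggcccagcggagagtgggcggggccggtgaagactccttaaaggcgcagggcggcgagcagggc
The motif, which reads the same on both strands, was found in 3 of 5 heat shock genes with an entry (Hspa1a, Hspa1b and Hspb1) and in 5.93% of the 9987 kept genes with one. Since Hspa1a and Hspa1b are near-identical copies, their matches are not independent, and a match is a description only.

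The remaining genes of highest spread had mixed orders. Ccn1, a secreted matrix protein also induced early by growth signals, had 13.1, 98.4 and 38.1 CPM. Mt1, a metallothionein, had 6.504, 38.2 and 11.2 CPM, and Aqp3, a water and glycerol channel, had 6.19, 28.5 and 14.5 CPM, so these 3 also peaked in replicate 2. Angptl4, a secreted inhibitor of lipoprotein lipase, was highest in replicate 1, with 48.6, 18.3 and 5.94 CPM. Mmp13, a collagenase, had 11.4, 39.6 and 53.9 CPM, and Akain1 had 17.4, 16.6 and 4.31 CPM.

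**Figure D5:**
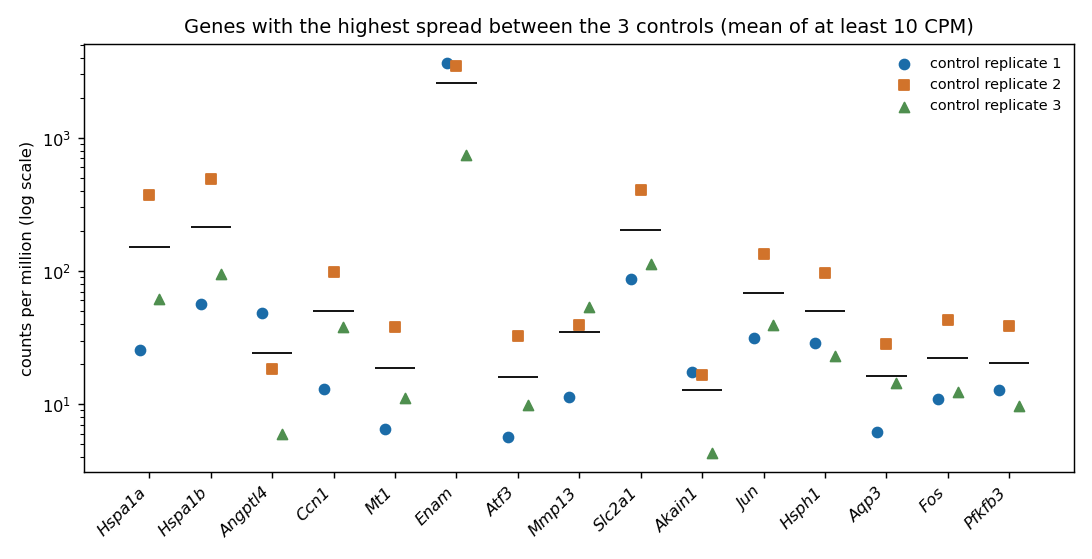
Level in CPM (y axis, log scale) of the 15 genes with the highest SD of log2 CPM among those with a mean of at least 10 CPM, in control replicates 1 (circles), 2 (squares) and 3 (triangles), with the mean as a black line. Gm, Rik, LOC and clone symbols were left out of the ranking. Replicate 2 is the highest library for 11 of the 15 genes, and Enam and Akain1 are low in replicate 3 only.

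Over the 500 genes with the highest spread at 10 CPM or more, replicate 3 held the lowest value for 300 genes, replicate 1 for 177 and replicate 2 for 23. Over all 9641 genes at that level the lowest values were spread over replicates 1 to 3 as 3401, 2698 and 3542. At the other end, Gm, Rik, LOC and clone symbols were again left out. The 10 steadiest genes with a mean of at least 100 CPM were Gid8, Ppp6r1, Khsrp, Csnk2a1, Psmd1, Puf60, Uaca, Cs, Samd4b and Hnrnpf. Gid8, a subunit of a ubiquitin ligase, had 149, 148 and 149 CPM. The log2 SD of all 10 was below the value that counting error alone gives on average. These genes were picked for their low spread from many.

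The inactivation transcript of the X chromosome and genes of the Y chromosome were both present in each library. Xist had 221, 512 and 42.1 CPM in replicates 1 to 3. The Y-linked gene Ddx3y had 31.1, 36.3 and 47.9 CPM, lowest in replicate 1. Eif2s3y had 49.3, 35.7 and 51.9 CPM, Kdm5d 23.5, 20.3 and 27.7 CPM and Uty 12.9, 7.05 and 8.14 CPM. These 3 Y-linked genes were lowest in replicate 2. The labels give no sex for the animals. Xist was highest in replicate 2, the library in which heat shock genes were highest, and its part in the differences between libraries was not tested.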

How the data were processed

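RNA of 3 control samples was sequenced. A table of read counts by gene, in whole numbers, was deposited with symbols, NCBI gene numbers and gene types. The submitters' processing notes list fastp, HISAT2 and build mm39. The counter, its strand setting, the versions and the annotation were not given in the sources used here. Overlapping, antisense and near-identical genes may therefore share reads. The knockout columns were not used here.

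From the deposited counts, CPM was computed over all rows of a column. Genes typed as protein-coding with at least 1 CPM in all 3 controls were kept. The SD of log2 CPM used a prior count of 0.5, and counting error was taken from the read counts. Level per kilobase used the longest basic coding transcript of GENCODE release M21 (build GRCm38), matched by gene number, then symbol. This length was chosen after the median transcript length had been seen to misplace some genes. Dispersion was fitted with edgeR 4.0.16 in R 4.3.3 with an intercept only. There was 1 group, so no test between groups was made.

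The text named the 7 markers, the 20 genes highest by CPM and per kilobase, up to 4 most abundant members per list, the 15 most and 10 least variable genes, and Pkm. Gm, Rik, LOC and clone symbols were left out of the 20 highest and of the most and least variable genes. Other genes are said to be chosen after their values were seen where they carry a result, and unkept or 0-read members were named as such. The 41 gene lists (804 genes, 803 found) and the members were chosen with earlier results of these data known. Lists overlap, and a gene counts once in a group sum. Some genes that the rule names are not reported here. The procedures were tested on simulated data. Alternatives were TMM scaling, DESeq2 1.42.0 size factors, other filters, other lengths, a larger prior count and leaving out each replicate. Python 3.11.15 was used.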

Additional observations from a re-analysis of the deposited data

Results flagged for a closer look

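The gene types other than protein-coding entered no result above, and reads were found there above the limit that a count of 0 allows (0.0761 to 0.0787 CPM). Such genes held 0.757% of all counts on average over the 3 controls, and 486 of them had at least 1 CPM in every control. H19, an imprinted RNA, had 353, 545 and 715 CPM in replicates 1 to 3 (mean 537.6). Malat1, a nuclear RNA, had 419, 664 and 417 CPM (mean 499.96), highest in replicate 2. Norad had 308, 288 and 324 CPM (mean 306.6), and Xist had a mean of 258.6 CPM with a 12.2-fold range. No treated or untreated reference sets a background for these rows.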

How the results depend on the processing

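No paired analysis was possible because 1 group is described. With no filter beyond 1 read the median log2 SD was 0.226, as more genes with few reads entered. Without mitochondrial and hemoglobin genes the metabolic sum was 29194 CPM, since 13 of its members were removed. Leaving out 1 replicate gave a median log2 SD of 0.101 to 0.167 and a coefficient of variation of 0.130 to 0.185. Both were lowest without replicate 3, and the cause was not tested. These medians are of SDs over 2 libraries, so they are not directly comparable with the median over 3 libraries. Otherwise the number of kept genes stayed within 1.5 times, and the sums and the share of the 10 most abundant genes within the SD of the 3 libraries. A mean of 2 of the 3 libraries lies within that SD by construction. Leaving out 1 replicate was therefore no check of the sums or the share. For the median log2 SD and the coefficient of variation, the limit was the SD of the values with 1 replicate left out. Under TMM scaling and DESeq2 size factors 38 of 40 lists kept the same highest and lowest library, the perivascular and the cartilage lists being the exceptions. Ranks of the 57 named genes depended on length: 35 moved by more than their spread over libraries with CPM alone, 21 with the median and 16 with the exon union length, while 6 to 27 moved when ranked within 1 library. The last 2 lengths were chosen after seeing the data. Depth limits genes near 1 CPM, where counting error is a large part of the spread.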
